A study of Mus musculus with 12 samples.

Results

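The 9 genes examined here make, load, export and take up the lipoprotein particles that carry cholesterol in the brain. They are the lipid carriers Apoe and Clu with the enzyme gene Lcat, the exporter genes Abca1, Abcg1 and Abca7, and the receptor genes Lrp1, Vldlr and Lrp8. They were chosen by name, as genes of a known role, with earlier results of these data known. They are 9 of the 55487 genes counted in the study. Upstream stimulatory factor 1 (USF-1), encoded by Usf1, is a transcription factor that binds the DNA word CACGTG, called an E-box, and its human gene has been linked to blood lipid traits. The comparison therefore asks whether hippocampal RNA of these genes differed between mice with and without USF-1.

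Hippocampi of 6 wild-type (WT) and 6 USF-1 knockout (KO) mice were sequenced, 1 library per mouse. All mice were of the C57Bl/6JRccHsd strain and 3 to 4 months old. The WT group held 4 females and 2 males and the KO group 2 females and 4 males. The KO was constitutive, that is, it affected every cell of the body throughout life, and the WT mice were littermates from heterozygous parents. Values are normalised counts, which are reads on a gene divided by 1 size factor per library. In a whole tissue, fewer cells of a type and less RNA per cell cannot be told apart.

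Brain lipoproteins are built apart from those of the blood, because the blood-brain barrier holds plasma lipoproteins back. Astrocytes secrete apolipoprotein E, the exporter ABCA1 loads it with cholesterol and phospholipid, and LCAT esterifies the cholesterol on the particle. Neurons and other cells take the particles up through receptors of the low-density lipoprotein (LDL) receptor family. Transcription of Apoe, Abca1 and Abcg1 is raised by liver X receptors, which pair with retinoid X receptors.

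The E-box was searched in RefSeq promoter windows of the build GRCm38.p6, each running from 250 bases before a gene start to 50 bases after it. By symbol 7 of the 9 genes matched, all but Clu and Abcg1, with 12 windows in all. The word CACGTG, which reads the same on both strands, occurred in 1 of them, the window of Abca1. It occurred in 7.15% of 32851 windows of the same length over all genes. The 250 bases before the start of Abca1 are shown because they hold this word, which stands in capitals and lies 147 to 142 bases before the start (chr4:53160037-53160042). The stretch is chr4:53159896-53160145 on the minus strand, written 5′ to 3′. A match describes the letters only, and whether USF-1 was bound there was not measured.
Abca1: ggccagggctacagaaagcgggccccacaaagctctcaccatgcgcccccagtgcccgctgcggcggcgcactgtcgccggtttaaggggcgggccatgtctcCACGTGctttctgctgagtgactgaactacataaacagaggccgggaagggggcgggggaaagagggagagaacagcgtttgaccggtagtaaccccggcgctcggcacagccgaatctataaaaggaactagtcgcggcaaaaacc

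The libraries held between 23369928 and 32091173 reads on genes in WT mice (median 26767181.5) and between 21679622 and 30859179 in KO mice (median 24031309.5). Usf1 had 1409 ± 284 normalised counts in WT mice against 141 ± 15.0 in KO mice (SD, n = 6 each), and WT mouse 5 stood apart at 842. WT mice 1 and 5 also held far more RNA of choroid plexus genes than the others, with summed counts of 9 markers of 91829 and 238877 against 3746 to 6658 in the other 10 mice. All 8 oligodendrocyte markers had a lower mean in KO mice (sums of 86509 to 187372 in WT and 74528 to 113928 in KO, lowest adjusted p = 0.0722 by limma), as had all 8 microglia markers (sums of 7969 to 10846 and 7442 to 8367, lowest adjusted p = 0.115 by limma). The 10 astrocyte markers summed to 107604 to 142904 in WT and 115405 to 129131 in KO mice, with a median log2 fold change of -0.016. All 8 hippocampal markers were present and had a higher mean in KO mice, with sums of 23781 to 34493 in WT and 26867 to 39332 in KO mice, a median log2 fold change of 0.20 and 0 past the threshold (lowest adjusted p = 0.277 by limma). Reads on the mitochondrial chromosome made up 4.12% to 4.87% in WT and 3.45% to 4.08% in KO libraries, without overlap. The part of these differences in the values below was not tested unless a value without the mice is given.

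All 9 genes were readily measured, and together they took 0.292% to 0.334% of each library's counts. Levels of different genes were compared roughly, per kilobase of exonic sequence, with the exons of all annotated transcripts of a gene merged. Apoe stood highest with a mean over the 12 mice of 15402 normalised counts per kb, above 99.8% of the 18221 genes tested. Clu followed at 6044 and Lrp1, an endocytic receptor, at 954. Lcat had 475 normalised counts per kb, Abcg1 291, Vldlr 226, Lrp8 209, Abca7 130.4 and Abca1 116. The ranges of the 12 mice overlapped between Abcg1 and Vldlr, between Vldlr and Lrp8 and between Abca7 and Abca1. Within single mice Abcg1 per kb was nonetheless above Vldlr in 12 of 12, by 1.22 to 1.40-fold. Vldlr was above Lrp8 in 11 of 12 mice and Abca7 above Abca1 in 10 of 12, so that the order of these pairs was not the same in every mouse. The other neighbours had no overlap, and the level of Apoe was 2.55-fold that of Clu. The merged length of a gene is the same in every mouse and may differ from that of the transcripts present. An order that recurs in every mouse therefore holds for counts per kb, and close levels of transcripts cannot be ranked by it.

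**Figure D1:**
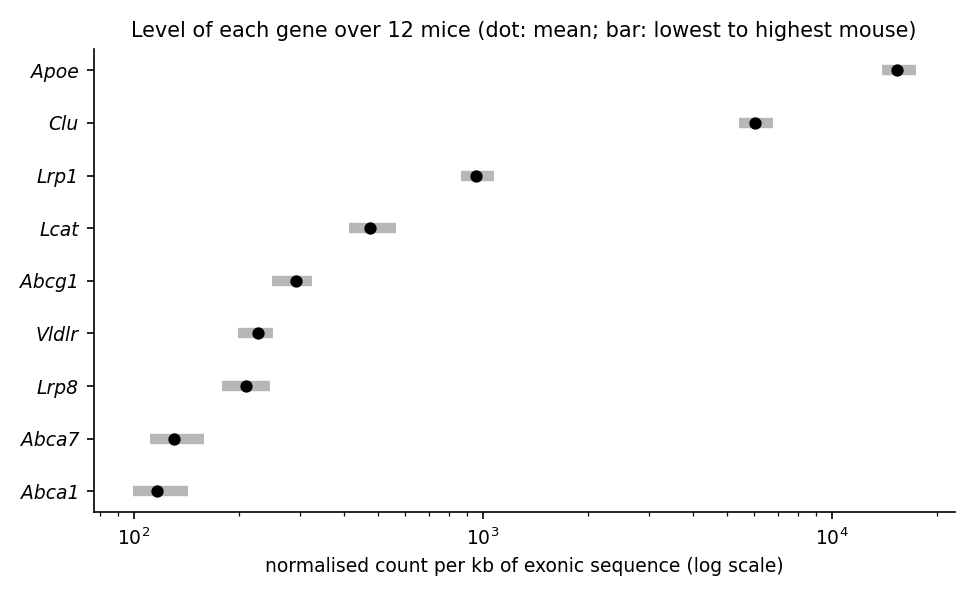
Normalised count per kilobase of exonic sequence of the 9 genes on a log axis; dots are means over 12 mice and bars run from the lowest to the highest mouse. Apoe at 15402 and Clu at 6044 stand apart from the other 7 genes, which lie between 116 and 954.

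Of the 9 genes, 0 passed the threshold between genotypes, an adjusted p under 0.05 from limma with Benjamini-Hochberg adjustment over 18221 genes. Among all genes tested, 0.900% passed it, 0.159% with a higher and 0.741% with a lower level in KO mice. At an unadjusted p under 0.05, limma gave 1 of the 9 genes, Apoe, where 13.5% of all genes reached that level. With edgeR on the recovered reads, 0 of the 9 passed, against 0.829% of all genes, and 1 had an unadjusted p under 0.05, against 13.9%. With DESeq2 the same counts were 0, against 3.35%, and 1, against 13.6%. The median log2 fold change of KO against WT was -0.026 over the 9 genes and -6.5e-04 over all genes tested. The values of WT and KO mice overlapped in each of the 9 genes, whereas 1.50% of all genes tested showed no overlap.

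**Figure D2:**
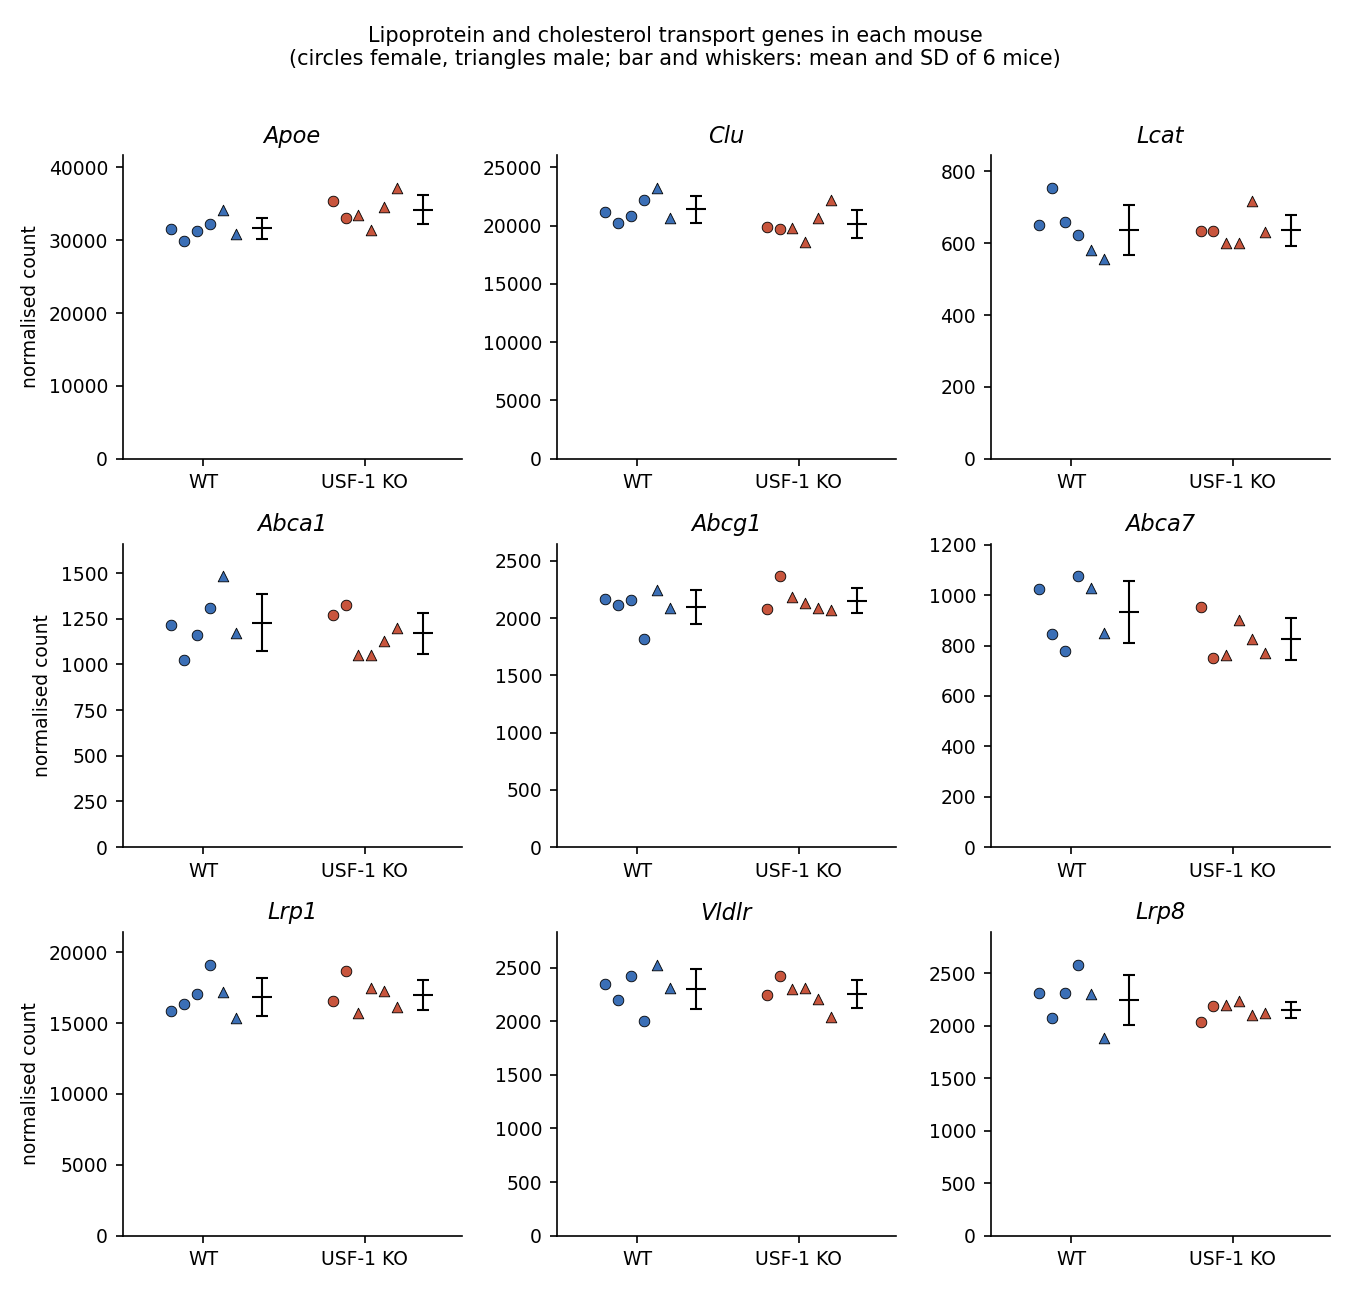
Normalised count of each gene in each mouse, with the axis of every panel starting at 0; circles are females, triangles males, and the bar with whiskers gives the mean and SD of 6 mice. WT and KO values overlap in all 9 panels, and the highest Apoe values, up to 37245, are those of KO mice.

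Among the lipid carriers, Apoe (ENSMUSG00000002985, chromosome 7, 19696109 to 19699188, minus strand, GRCm38) encodes the main apolipoprotein of brain particles. Its normalised counts ran from 29893 over a median of 31429 to 34171 in WT mice and from 31466 over 34006 to 37245 in KO mice. Of the KO mice, 5 of 6 lay above the WT mean and 3 above every WT mouse, while the other 3 lay inside the WT range. The means were 31681 ± 1444 and 34178 ± 2002 (SD, n = 6 each). The log2 fold change, 0.11 (95% interval 0.0029 to 0.21), missed the threshold (limma, adjusted p = 0.355). The two-sided exact permutation test of this gene alone gave p = 0.0325, unadjusted for the 9 genes tested in this way. The log2 difference was 0.13 among females and 0.070 among males, and 0.13 without the WT mice 1 and 5 (limma, adjusted p = 0.471).

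Clu (ENSMUSG00000022037, chromosome 14, 65968483 to 65981547, plus strand) encodes clusterin, or apolipoprotein J, a secreted chaperone found on the same kind of particle. It ran from 20262 over a median of 21007 to 23278 normalised counts in WT and from 18641 over 19857 to 22216 in KO mice. Here 4 of the 6 KO mice lay below every WT mouse, opposite to the side on which most Apoe values stood. The means were 21393 ± 1129.6 (SD, n = 6) and 20156 ± 1192 (SD, n = 6), a log2 fold change of -0.086 (95% interval -0.19 to 0.019, limma, adjusted p = 0.473). Without WT mice 1 and 5 it was -0.058 (limma, adjusted p = 0.814).

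Lcat (ENSMUSG00000035237, chromosome 8, 105939551 to 105943382, minus strand) encodes the enzyme that esterifies particle cholesterol. Its counts ran from 556 over a median of 637 to 755 in WT and from 599.6 over 632 to 718 in KO mice. All 6 KO values fell inside the WT range. The means of 637 ± 70.1 and 636 ± 43.3 (SD, n = 6 each) gave a log2 fold change of 0.0023, with an interval from -0.15 to 0.15 (limma, adjusted p = 0.994).

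Since Apoe and Clu leaned to opposite sides, their ratio within each mouse was computed; it was chosen after the values had been seen and is a description without a test. The ratio of normalised counts, Apoe over Clu, was 1.49, 1.48, 1.51, 1.45, 1.47 and 1.50 in WT mice 1 to 6. It was 1.78, 1.67, 1.69, 1.69, 1.67 and 1.68 in KO mice 1 to 6. Every KO mouse thus lay above every WT mouse, with means of 1.48 ± 0.0193 and 1.70 ± 0.0405 (SD, n = 6 each). On the log2 scale the ratio was 0.20 higher in KO mice, 0.22 among females and 0.18 among males, and the genotypes did not overlap within either sex. It was 0.19 higher without WT mice 1 and 5. Of the 36 ratios between 2 of the 9 genes this was the only one without overlap (2.78%). Among 14223111 ratios of genes with a mean count of 1000 or more, 1.59% had no overlap.

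Within each genotype the relation of Apoe and Clu from mouse to mouse was examined next. Across the 6 WT mice Pearson's r was 0.974 (exact permutation p = 0.00139), and the ranks of the 2 genes were in the same order (exact permutation p of Spearman's rho = 0.00278). Across the 6 KO mice r was 0.919 (exact permutation p = 0.0181) and rho 0.943 (exact permutation p = 0.0167). Over the 72 tests of this kind within a genotype, 0 passed after Benjamini-Hochberg adjustment and 6 had an unadjusted p under 0.05, and the adjusted p of r were 0.0667 and 0.260. Without the 2 mice farthest from the median of Apoe, r was 0.977 in WT but 0.397 in KO mice. The KO mice left are few and span a narrow range of Apoe, so this cannot tell whether the relation rested on those left out. In KO mice the astrocyte score also went with Apoe, with an r of 0.983 (exact permutation p = 0.00139) and the same order of ranks (exact permutation p of rho = 0.00278), and with an r of 0.917 without the 2 farthest mice. With Clu its r in KO mice was 0.868 (exact permutation p = 0.0264) and its rho 0.943 (exact permutation p = 0.0167), but r was 0.0894 without the 2 farthest mice. In WT mice the r of this score was -0.447 with Apoe (exact permutation p = 0.426) and -0.260 with Clu (exact permutation p = 0.625). The astrocyte score was not alone in going with Apoe in KO mice. There r was 0.926 for the inhibitory neuron score (exact permutation p = 0.0125) and 0.830 for the oligodendrocyte score (exact permutation p = 0.0389). It was -0.753 for the excitatory neuron score (exact permutation p = 0.0847), and 0.0470, 0.310 and 0.496 for the microglia, choroid plexus and endothelial scores. Of 117 tests of a score within a genotype 0 passed adjustment, and 12 had an unadjusted p under 0.05. No r over all 12 mice is given because the genotypes form separate clusters in this pair.

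**Figure D3:**
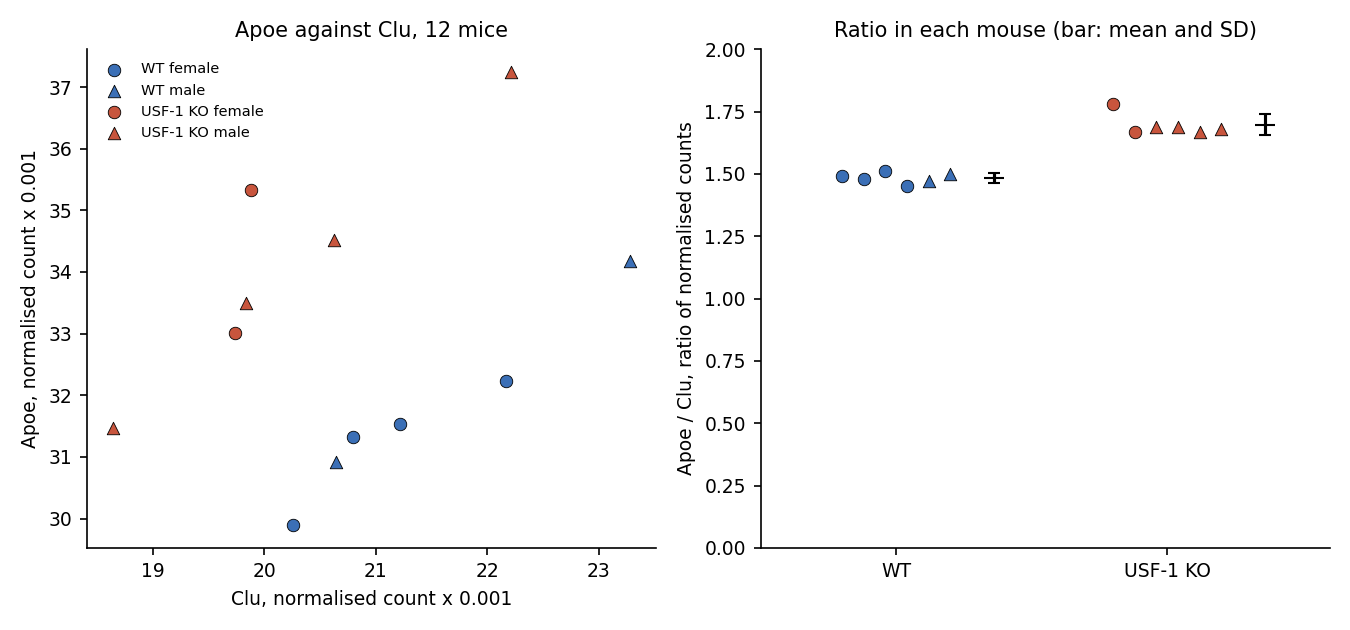
Left, Apoe against Clu in normalised counts multiplied by 0.001, 1 point per mouse; right, the ratio Apoe/Clu of each mouse from an axis start of 0, with mean and SD of 6 mice. WT mice lie between 1.45 and 1.51 and KO mice between 1.67 and 1.78.

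Among the exporters, Abca1 (ENSMUSG00000015243, chromosome 4, 53030787 to 53159895, minus strand) hands cholesterol and phospholipid to lipid-poor apolipoproteins, and it carries the E-box shown above. Its normalised counts ran from 1027 over a median of 1195 to 1484 in WT and from 1051 over 1164 to 1324 in KO mice. All 6 KO values lay inside the WT range, and the highest WT value was that of WT mouse 5. The means were 1229 ± 155 and 1171 ± 113 (SD, n = 6 each), a log2 fold change of -0.066 (95% interval -0.24 to 0.11, limma, adjusted p = 0.779). Without WT mice 1 and 5 the log2 fold change turned to 0.0040 (limma, adjusted p = 0.995).

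The sexes stood on opposite sides in 5 of the 9 genes. The widest gap was that of Abca1, with a log2 difference of KO and WT of 0.14 among females and -0.25 among males. The same differences, females first, were -0.079 and 0.16 for Lcat, 0.11 and -0.031 for Abcg1, 0.064 and -0.13 for Vldlr, and -0.13 and 0.056 for Lrp8. For Abca1, the KO mean was 1296 against 1179 in WT females, and 1108 against 1328 in WT males. The WT males were only 2, at 1484 and 1172, and the first of them is WT mouse 5, rich in choroid plexus RNA. The interaction of sex and genotype for Abca1 did not pass adjustment (limma, unadjusted p = 0.0225). An interaction passed adjustment in 0 of the 18221 genes by limma, and 3.45% of them had an unadjusted p under 0.05. Of the 9 genes, 1 had such a p.

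Abcg1 (ENSMUSG00000024030, chromosome 17, 31057675 to 31117988, plus strand) encodes the exporter that passes cholesterol on to particles already holding lipid. It had 1817 to 2242 normalised counts in WT (median 2135) and 2073 to 2367 in KO mice (median 2107). WT mouse 4 at 1817 was the low value, the other 5 WT mice lay at 2088 or above, and 5 of 6 KO mice fell inside the WT range. The log2 fold change was 0.039 (95% interval -0.071 to 0.15, limma, adjusted p = 0.789), from means of 2098 ± 147 and 2153 ± 113 (SD, n = 6 each). Without WT mouse 4 it was -0.0015, so that its sign rested on that mouse.

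Abca7 (ENSMUSG00000035722, chromosome 10, 79996494 to 80015572, plus strand) encodes a transporter related to ABCA1 whose human gene is linked to Alzheimer's disease. It ran from 777 over a median of 936 to 1076 normalised counts in WT and from 749 over 798 to 954 in KO mice. Of the KO mice 3 lay below every WT mouse and the other 3 inside the WT range. The means of 933 ± 124 and 827 ± 83.9 (SD, n = 6 each) gave the largest log2 fold change of the 9 genes in size, -0.17 (95% interval -0.36 to 0.019), which missed the threshold (limma, adjusted p = 0.428). It was -0.10 without WT mice 1 and 5 (limma, adjusted p = 0.823).

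None of the 3 receptors differed by more than 0.058 in size on the log2 scale. Lrp1 (ENSMUSG00000040249, chromosome 10, 127538161 to 127621148, minus strand) encodes a large endocytic receptor that takes up apolipoprotein E particles. Its normalised counts were 15353 to 19136 in WT (median 16683) and 15742 to 18656 in KO mice (median 16917), with all 6 KO mice inside the WT range. The log2 fold change was 0.014 (95% interval -0.11 to 0.14, limma, adjusted p = 0.943), from means of 16827 ± 1330.5 and 16980.5 ± 1059.8 (SD, n = 6 each).

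Vldlr (ENSMUSG00000024924, chromosome 19, 27216484 to 27254231, plus strand) and Lrp8 (ENSMUSG00000028613, chromosome 4, 107801869 to 107876840, plus strand) encode the very-low-density lipoprotein receptor and the apolipoprotein E receptor ApoER2, which also receive reelin, a protein that guides neuronal positioning. Vldlr had 1999 to 2529 normalised counts in WT (median 2327) and 2042 to 2426 in KO mice (median 2272). Lrp8 had 1881 to 2583 in WT (median 2307) and 2031 to 2232 in KO mice (median 2157). In both genes all 6 KO mice fell inside the WT range, although all 6 lay below the WT mean of Lrp8, where the WT mean was 2320.3 in the 4 females and 2091 in the 2 males. The means of Vldlr were 2299.5 ± 184 and 2255 ± 128 (SD, n = 6 each), a log2 fold change of -0.026 (95% interval -0.15 to 0.094, limma, adjusted p = 0.884). Those of Lrp8 were 2244 ± 241 and 2146 ± 75.2 (SD, n = 6 each), a log2 fold change of -0.058 (95% interval -0.19 to 0.077, limma, adjusted p = 0.740). Lrp8os3, a noncoding gene on the opposite strand that shares the promoter region, was counted at 1.05% of the mean of Lrp8. The antisense gene Lrp8os2 was counted at 0.323%. Neither shares exonic bases with Lrp8 in the annotation.

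Taken gene by gene, the intervals bound what these mice allow. They are not adjusted for the number of genes tested, so that of Apoe leaves out 0 although its adjusted p was 0.355 (limma). Expressed as a change of the level on the scale of normalised count plus 1, they ran from 0.204% to 16.0% for Apoe, from -12.4% to 1.30% for Clu and from -7.21% to 9.94% for Lrp1. The widest were those of Abca1, from -15.5% to 8.05%, and of Abca7, from -22.0% to 1.33%. Spread between mice was smallest for Apoe in WT mice, with a coefficient of variation of 4.56%, and in KO mice for Lrp8, with 3.50%. It was largest for Abca7 in both, with 13.3% in WT and 10.1% in KO mice.

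**Figure D4:**
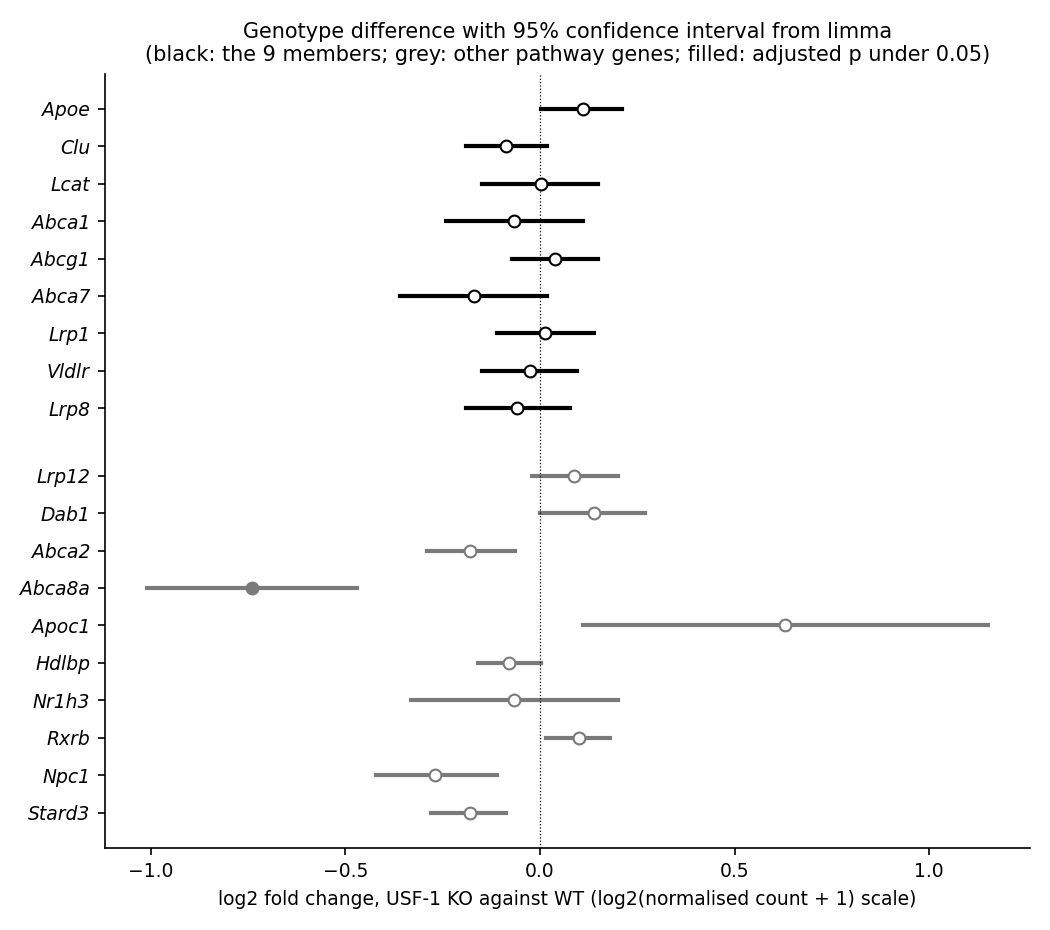
Log2 fold change of KO against WT with its 95% interval from limma, unadjusted for the number of genes. Black marks the 9 genes, grey the named genes of the 5 related lists, and a filled point an adjusted p under 0.05. Abca8a at -0.74 is the only filled point, and the intervals of 8 of the 9 genes include 0.

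The genes around these 9 were followed in 5 lists with 67 genes, of which 56 were tested. In KO mice 0 were higher and 1 was lower past the threshold, where 0.900% of all genes passed it in either direction. An unadjusted p under 0.05 was found in 10 of the 56, where 13.5% of all genes had one (limma), so that both counts were near the background. Their median log2 fold change was -0.029. The gene past the threshold, Abca8a (ENSMUSG00000041828, chromosome 11, 110025634 to 110095978, minus strand), encodes a lipid transporter of the ABCA family. Its normalised counts were 262 to 423 in WT (median 343) and 158 to 243 in KO mice (median 216), and all 6 KO mice lay below every WT mouse. The means were 348 ± 56.2 and 208 ± 34.0 (SD, n = 6 each), a log2 fold change of -0.74 with a standard error of 0.13 (limma, adjusted p = 0.0139). Without WT mice 1 and 5 it was -0.69 and no longer passed (limma, adjusted p = 0.0721). The lowest WT value was that of WT mouse 4, which also had the lowest oligodendrocyte score of the WT mice, and the part of oligodendrocyte RNA in this difference was not tested.

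Of the 10 other ABCA and ABCG transporters tested, the next smallest p was that of Abca2, a transporter abundant in oligodendrocytes. It had 9045 to 11277 normalised counts in WT and 8753 to 9766 in KO mice, a log2 fold change of -0.18 (limma, adjusted p = 0.140). The values overlapped, with 2 KO mice below every WT mouse. The median of this list was -0.15, with 4 genes above 0 and 6 below.

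Intracellular cholesterol handling held 15 tested genes, of which 0 passed the threshold and 5 had an unadjusted p under 0.05 (limma, against 13.5% of all genes), with a median of -0.061. Of those 5, Stard3, Npc1, Npc2 and Lipa were lower in KO mice and Gramd1c was higher. Stard3, which moves sterol between endosomes and other membranes, had 680.4 to 732 normalised counts in WT and 579 to 686 in KO mice, a log2 fold change of -0.18 (limma, adjusted p = 0.0808). Of the KO mice 5 lay below every WT mouse. Npc1, which lets cholesterol out of late endosomes and lysosomes, had 1754 to 2366 in WT and 1554 to 1898 in KO mice, a log2 fold change of -0.27 (limma, adjusted p = 0.105). With DESeq2 on the recovered reads 3.35% of all genes passed, against 0.900% with limma. Among them were Stard3, Npc1 and Abca2 (DESeq2, adjusted p = 0.0142, 0.0180 and 0.0319) and Lipa (log2 fold change -0.26, DESeq2, adjusted p = 0.0470). Without WT mouse 4 limma passed 515 of 18201 genes, against 164 of 18221 with all 12 mice. Npc1 and Abca2 were among those 515 (limma, adjusted p = 0.0155 and 0.0139). Without WT mice 1 and 5 the log2 fold changes were -0.20 for Stard3, -0.23 for Npc1 and -0.13 for Abca2 (limma, adjusted p = 0.208, 0.337 and 0.478), from fewer mice. These genes stand beside the lower oligodendrocyte and microglia markers in KO mice, whose part in them was not tested.

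The other LDL receptor relatives and their partners, 17 genes, had 0 past the threshold and 10 above 0 against 7 below, with a median of 0.024. The smallest p were those of Dab1, the adaptor that passes on the reelin signal of Vldlr and Lrp8, and of the receptor relative Lrp12. Dab1 had 3066 to 3578 normalised counts in WT and 3098 to 4095 in KO mice, a log2 fold change of 0.14 (limma, adjusted p = 0.367). Lrp12 had 1140.4 to 1296 in WT and 1204 to 1407 in KO mice, a log2 fold change of 0.087 (limma, adjusted p = 0.484). In both the values of the genotypes overlapped.

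Among the 5 liver X and retinoid X receptors 0 passed. Rxrb had 1529.7 to 1727 normalised counts in WT and 1704 to 1854 in KO mice, a log2 fold change of 0.10 (limma, adjusted p = 0.270). Nr1h3, the liver X receptor alpha, had 67.0 to 103 in WT and 67.5 to 99.5 in KO mice, a log2 fold change of -0.066 (limma, adjusted p = 0.860). In both the values of the genotypes overlapped, although 3 KO mice lay above every WT mouse in Rxrb.

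Other apolipoproteins and lipoprotein enzymes held 9 tested genes, of which 0 passed, with a median of -0.080. Apoc1, a small apolipoprotein whose gene neighbours Apoe, had 12.8 to 30.8 normalised counts in WT and 22.9 to 49.6 in KO mice, a log2 fold change of 0.63 (limma, adjusted p = 0.265). Hdlbp, a protein that binds RNA and high-density lipoprotein, had 5245 to 5780.0 in WT and 4984 to 5583 in KO mice, a log2 fold change of -0.080 (limma, adjusted p = 0.391). Apoa2, an apolipoprotein of plasma high-density lipoprotein, fell below the mean count of 10 required for testing and was picked out after its values were seen. It had 7 to 17 reads in each WT library, 0 reads in 5 KO libraries and 1 read in the other. That is 63 reads against 1, a ratio of WT to KO of 57.8 after division by size factors, with a 95% exact interval of 10.003 to 2319 that covers counting error only. Without the limit on the mean its adjusted p was 1.16e-04 (limma). Apoa2 lies at 171225054 to 171226379 on chromosome 1, 0.185 Mb from Usf1, and the part of this closeness was not tested.

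Across the 12 mice, the level of Abcg1 went with that of Vldlr. Pearson's r was 0.821 (permutation p = 6.50e-04, adjusted p = 0.0234 over 36 pairs) and Spearman's rho 0.860 (permutation p = 6.10e-04, adjusted p = 0.0220). It was 0.806 without the 2 mice farthest from the median of Abcg1. Within WT mice r was 0.934 (exact permutation p = 0.00833) and within KO mice 0.783 (exact permutation p = 0.0917), of which 0 passed adjustment over the 72 tests within genotypes. Without the 2 farthest mice of each genotype r was 0.592 in WT and 0.750 in KO mice. WT mouse 4 was the lowest WT mouse in both genes, at 1817 for Abcg1 and 1999 for Vldlr. No other of the 36 pairs passed adjustment, and 3 had an unadjusted p under 0.05. Among the others, Clu and Abca1 had an r of 0.650 (permutation p = 0.0218, adjusted p = 0.322), a rho of 0.462 (permutation p = 0.134) and an r of 0.261 without the 2 farthest mice. Within genotypes its r was 0.969 in WT (exact permutation p = 0.00278, adjusted p = 0.0667) and 0.288 in KO mice (exact permutation p = 0.603). Lrp1 and Lrp8 had an r of 0.633 (permutation p = 0.0268, adjusted p = 0.322) and a rho of 0.420 (permutation p = 0.178), with an r of 0.468 without the 2 farthest mice. Its r was 0.847 in WT (exact permutation p = 0.0403, adjusted p = 0.483) and 0.256 in KO mice (exact permutation p = 0.629). Whether these pairs differed between genotypes was not tested.

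The members were also set against scores of 7 cell types, each the mean of the log2 values of its markers centred over the mice, with the choroid plexus score taken over the 10 mice other than WT mice 1 and 5. Of 63 relations 0 passed adjustment, and 3 had an unadjusted p under 0.05. The lowest r was that of Lrp1 with the oligodendrocyte score, at -0.697 (permutation p = 0.0125, adjusted p = 0.394) and a rho of -0.741 (permutation p = 0.00797, adjusted p = 0.351). Within WT mice r was -0.975 (exact permutation p = 0.00278, adjusted p = 0.163) and within KO mice -0.873 (exact permutation p = 0.0236, adjusted p = 0.386). Over all mice it was -0.545 without the 2 farthest. Vldlr and the astrocyte score had an r of -0.695 (permutation p = 0.0124, adjusted p = 0.394) and a rho of -0.706 (permutation p = 0.0132, adjusted p = 0.351), and an r of -0.563 without the 2 farthest mice.

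**Figure D5:**
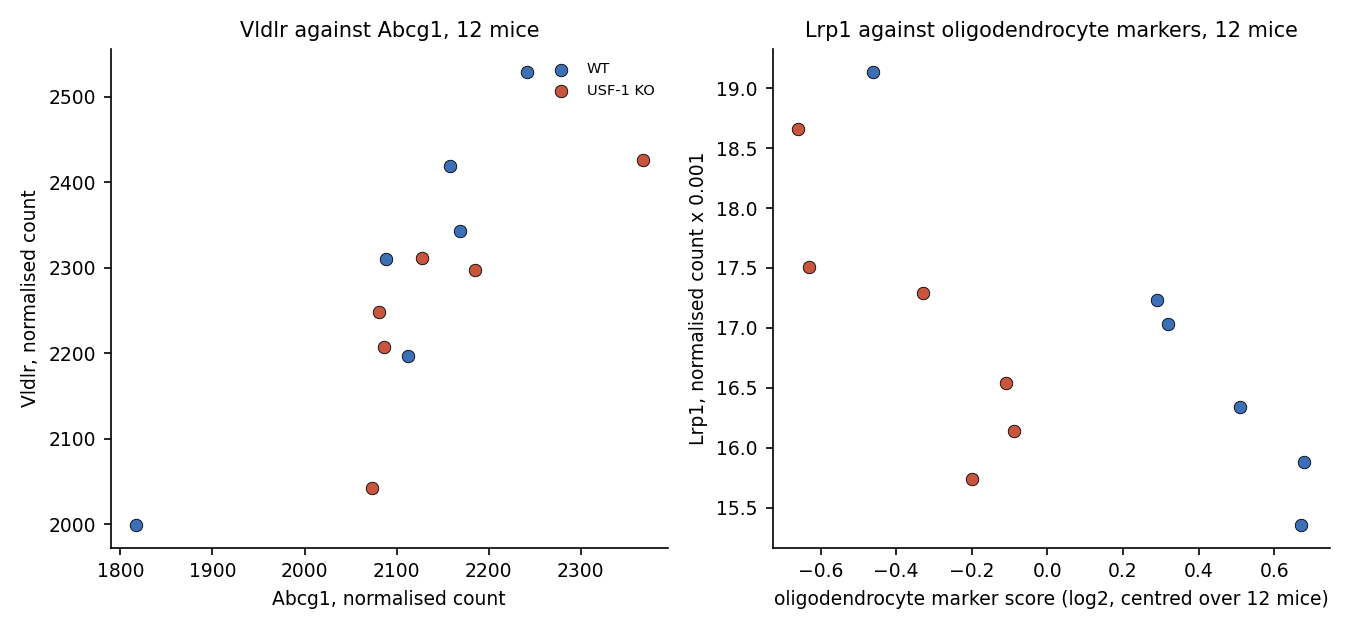
Left, Vldlr against Abcg1 in normalised counts; right, Lrp1 in normalised counts multiplied by 0.001 against the oligodendrocyte score, the mean log2 value of 8 markers centred over the 12 mice; 1 point per mouse. Mice with more Abcg1 have more Vldlr (r = 0.821), and r between the score and Lrp1 is -0.697, which did not pass adjustment.

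The genes most like each of the 9 were sought among 12677 genes with a mean count of 100 or more, by the correlation across the 12 mice after each genotype's mean was subtracted. For Apoe these were B9d1 (r = 0.937), Tctn2 (0.901) and Efcab2 (0.899), and for Clu they were Mrps36-ps1 (0.912), Zdhhc1 (0.896) and Coq8b (0.889). For Lcat they were Prpf4 (0.938), 1700017B05Rik (0.903) and Hopx (0.878). The exporters gave Pdgfc (0.939), Pld2 (0.921) and Rps6ka5 (0.920) for Abca1, Mir99ahg (0.964), Rbmx2 (0.895) and Col4a3bp (0.894) for Abcg1, and Zfp811 (0.928), Kantr (0.928) and Cgrrf1 (0.898) for Abca7. The receptors gave Prrc2c (0.939), Hcfc1 (0.935) and Crebbp (0.928) for Lrp1, Nampt (0.920), Twf1 (0.918) and H3f3a (0.913) for Vldlr, and Gm12397 (0.944), Zkscan3 (0.923) and Xpr1 (0.917) for Lrp8. These are the highest of many values, share libraries and depth, and carry no test.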

How the data were processed

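RNA was isolated from hippocampi with miRNeasy kits (RNA integrity numbers above 7.0) and libraries were made with NEBNext Ultra II. The authors aligned reads with an Illumina BaseSpace application and STAR and normalised with DESeq2. The submitters' processing notes name STAR 2.5.0a, edgeR 3.22.2 and mm10. Read counter, annotation and strandedness are not given in the sources used here. The deposited signal of each gene is its read count over a library size factor. Within a tolerance of 0.001 reads, 100.0% of values in each library were whole multiples of 1 step, so reads were recovered. Coordinates equalled those of GENCODE M21 on GRCm38 for 54821 of 55487 genes, and those of Lrp8 differ slightly. Between any 2 libraries, chi-square over its degrees of freedom was at least 4.50, so that none was a repeat of another.

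Genotypes were compared with limma 3.58.1 (R 4.3.3) fitted to log2(normalised count + 1) by genotype alone, with the variance following the mean. Tests were two-sided and adjusted by Benjamini-Hochberg over 18221 genes with a mean of at least 10 and a threshold of 0.05. Alternatives were edgeR 4.0.16 (quasi-likelihood, TMM) and DESeq2 1.42.0 on recovered reads, pseudocounts of 0.5 and 5, other limits on the mean, rescaling, quantile normalisation, limma without the trend or with sex added, a threshold of 0.1, leaving out each mouse, and leaving out WT mice 1 and 5, the last chosen after seeing the data. Exact permutation tests ran over 924 assignments of mice; correlations over 12 mice used 100000 permutations. The fits were tested on simulated counts. Named were the 9 genes, Usf1, of each related list the genes past the threshold and otherwise those with the 2 smallest p, and the 3 genes most like each of the 9. Apoa2, Lipa, Npc2, Gramd1c and the ratio of Apoe to Clu were added after their values were seen. The 9 genes and all lists were chosen with earlier results of these data known. Mice are numbered in accession order. Figures used matplotlib 3.10.9 under Python 3.11.15.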

Additional observations from a re-analysis of the deposited data

Results flagged for a closer look

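In 6 of 58 groups of 6 mice examined, the highest or lowest mouse stood apart from the other 5 by more than Dixon's criterion allows, where chance flags about 1 in 20 groups, or 2.90 of them. Lcat had 718 normalised counts in KO mouse 5, against 599.6 to 635 in the other KO mice. Abcg1 had 1817 in WT mouse 4, against 2088 to 2242 in the other WT mice. Usf1 had 842 in WT mouse 5, against 1425 to 1583, and the summed choroid plexus markers reached 238877 in the same mouse, against 4272 to 91829 in the other WT mice. Apoc1 had 49.6 in KO mouse 1, while the other KO mice had 22.9 to 32.5. The ratio of Apoe to Clu was 1.78 in that mouse, against 1.67 to 1.69. Without KO mouse 1 the log2 ratio of Apoe to Clu was 0.18 higher in KO mice.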

How the results depend on the processing

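None of the 9 genes passed the threshold under any of 23 alternatives, the lowest adjusted p being 0.217 (Apoe, DESeq2). Apoe stayed higher in KO mice in all 23 (log2 fold change 0.083 to 0.13), and Clu, Abca7 and Lrp8 lower, while Lcat, Abca1, Abcg1, Lrp1 and Vldlr changed sign in 1 to 7 of them. Over all genes, 164 passed, against 611 with DESeq2, 343 at a threshold of 0.1, 109 without the trend, 98 with sex as a covariate, 59 without WT mice 1 and 5, and 64 (without WT mouse 1) to 515 (without WT mouse 4) with single mice left out. Of the related genes 1 passed, against 5 with DESeq2, 2 with no limit on the mean, 2 at a threshold of 0.1, 0 without WT mice 1 and 5, and 1 to 3 with single mice left out, 3 without WT mouse 4. The cause of these shifts was not tested. Abca8a passed in 22 of 23 alternatives (-0.82 to -0.66). The ratio of Apoe to Clu was 0.18 to 0.20 higher on the log2 scale with single mice left out. With 6 mice per genotype, changes within the intervals given remain possible. The smallest difference that could pass the threshold was not computed. No paired analysis was possible because the labels give no replicate numbers shared between genotypes.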
